A study of Mus musculus with 7 samples.

Results

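Tight junctions seal the space between epithelial cells and hold the apical and basolateral surfaces of a cell apart. Their strands are built from claudins, membrane proteins whose isoforms set which ions pass between cells, together with occludin. Scaffold proteins such as ZO-1 tie these strands to actin, and junctional adhesion molecules lie beside them. In the mammary gland the luminal cells carry several claudins, and their junctions become tight when milk secretion begins. The genes described here are the claudins Cldn1, Cldn3, Cldn4, Cldn7 and Cldn8, with Ocln (occludin), Tjp1 (ZO-1) and F11r (junctional adhesion molecule A). They were taken as tight junction components of epithelial tumour cells, by gene symbol. They are 8 of 12393 genes with a probe set of a single symbol, and 15 of the 22626 probe sets measured, with 1 to 4 a gene.

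Expression was measured with 1-colour Affymetrix arrays on total RNA of transplanted mouse mammary tumours, with 3 arrays of the line Met1 and 4 of the line DB7. As background, both lines come from mice in which the mouse mammary tumour virus promoter drives polyoma middle T in mammary epithelium. Met1 derives from tumours of unmutated middle T and is known to metastasise readily, whereas DB7 carries a middle T with altered signalling docking sites and seldom metastasises. The labels give neither genotype, strain, age nor host, and whether the arrays of a line stand for separate animals is not said. The p-values rest on the spread among these arrays only, and that spread may be technical. The series' text speaks of first-generation outcross tumours, but the sample labels, which name transplants, were followed. Each line is a single line, so a difference between them cannot be told apart from any other difference between the lines.

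The arrays were closely similar, with correlations over tested probe sets of 0.983 to 0.989 within Met1, 0.962 to 0.980 within DB7 and 0.886 to 0.905 between the lines. Within DB7 the arrays DB7 1 and DB7 4 stood apart by higher stromal and lymphoid genes. The mean of 9 fibroblast markers was 9.32 and 8.75 there, against 8.18 and 7.79 in DB7 2 and DB7 3 (log2). The 8 genes and the calls on the lists are therefore also given without these 2 arrays. Epithelial identity was plain in every array, since 11 of 12 measured epithelial markers lay above the array median in all 7. In such bulk samples, fewer cells of a type and less RNA per cell cannot be told apart.

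The junction genes did not move as a block. Met1 tumours had more Cldn7, Cldn1 and Cldn8, DB7 tumours had more Cldn4 and Ocln, and Cldn3, Tjp1 and F11r differed little. All values are log2 probe set summaries, differences are Met1 minus DB7 with limma's standard error (SE), and a gene was called where limma's adjusted p over all tested probe sets was under 0.05. Of the 15 probe sets, 12 lay above the array median on at least 3 arrays and were tested. Among these, 4 were higher and 2 lower in Met1 and 6 were not called. Over all 11704 tested probe sets 31.0% were called, 13.4% higher and 17.6% lower. Each of the 8 genes had at least 1 tested probe set, 3 genes were higher and 2 lower, and 30.9% of all 7482 tested genes were called, 13.0% higher and 17.9% lower. Cldn7 and Cldn8 lay above the array median on the 3 Met1 arrays alone and so could enter the test only by differing, and these counts are a description. The median difference over the 8 genes was 0.21, against -0.04 over all tested genes.

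**Figure D1:**
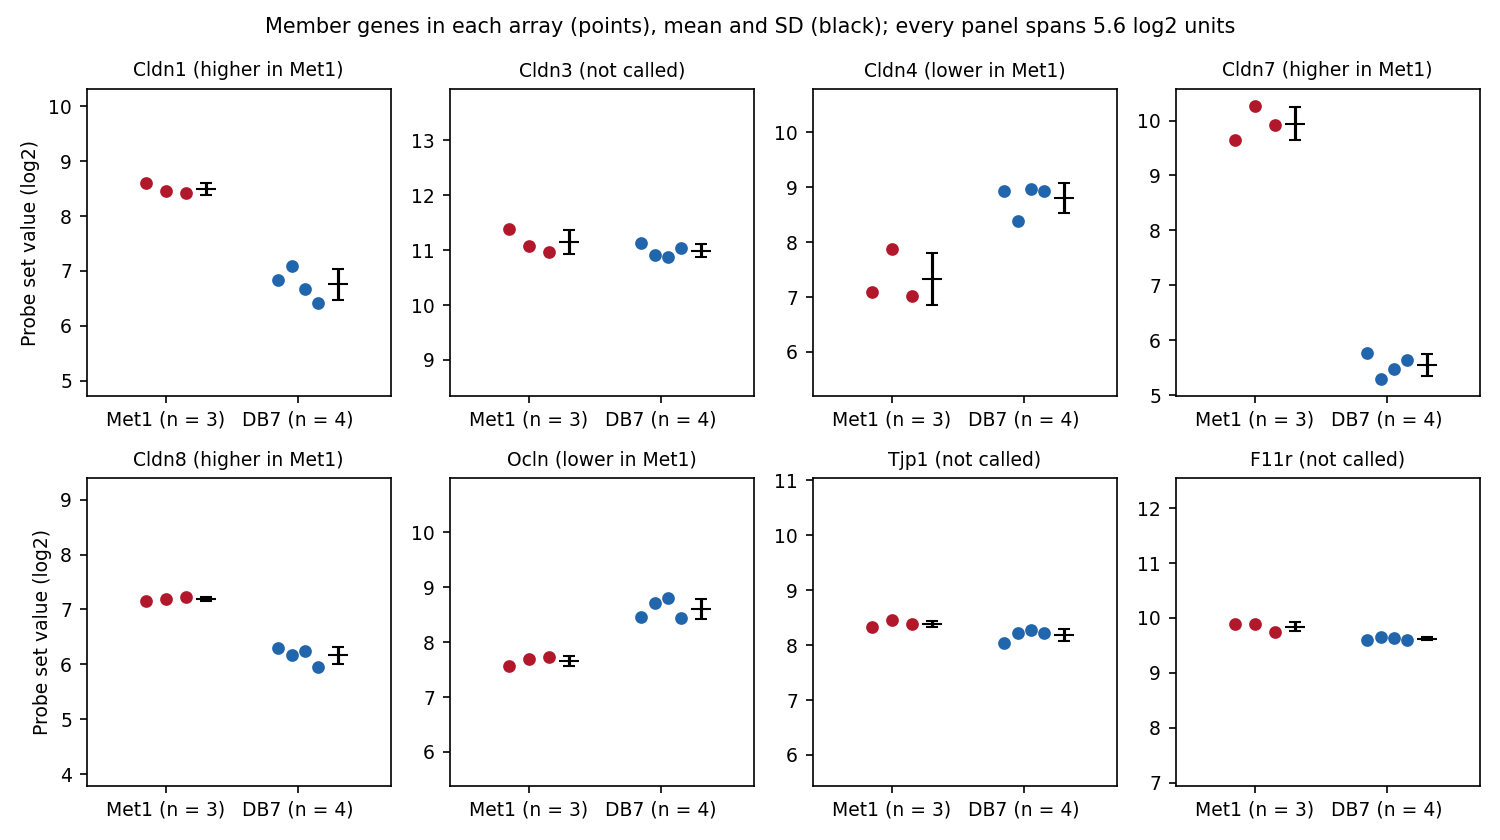
Values of the brightest tested probe set of each gene (log2, vertical axis) in the 3 Met1 arrays (red) and 4 DB7 arrays (blue), with the group mean and SD in black. Axes differ between panels but all span the same range, so the gap of Cldn7 (9.94 against 5.54) can be set beside the small gap of Cldn3 (11.15 against 10.99).

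Cldn7 showed the largest difference of the 8 genes. This claudin lies along the basolateral membrane of many epithelia as well as in the junction, and binds the adhesion molecule Epcam. It measured 9.65, 10.26 and 9.92 in the Met1 arrays and 5.76, 5.29, 5.48 and 5.64 in the DB7 arrays. The groups lay far apart, and every DB7 value was below the median of its array. The difference was 4.40 (SE 0.16; limma, adjusted p = 5.02e-07), with a 95% interval of 4.04 to 4.75, which is about 21.1-fold. The DB7 signals were low and the method of summary is not known, so this fold is approximate. With no intensity filter, so that entry did not depend on the Met1 arrays, limma's adjusted p was 8.25e-07. Without DB7 1 and DB7 4 the difference was 4.56.

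Cldn1, a sealing claudin found in most epithelia, was the next. Its brighter probe set measured 8.61, 8.45 and 8.42 in Met1 and 6.83, 7.09, 6.68 and 6.42 in DB7. The lowest Met1 array lay more than a log2 unit above the highest DB7 array. The difference was 1.74 (SE 0.14; limma, adjusted p = 5.36e-05), a rise of 3.34-fold. The second tested probe set rose by 1.22 (SE 0.15; adjusted p = 0.000402), with Met1 arrays at 8.28, 8.01 and 8.16 and DB7 arrays at 6.78, 7.33, 6.94 and 6.69. Both probe sets put the same DB7 array, DB7 2, highest in its group. The differences were 1.61 and 1.02 without DB7 1 and DB7 4. The other 2 Cldn1 probe sets stayed between 2.80 and 3.07 on every array, below the median of each, and were not tested.

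Cldn8, a claudin of tight epithelia such as the distal kidney tubule, rose by a smaller and steady amount. It measured 7.16, 7.19 and 7.23 in Met1 and 6.30, 6.17, 6.25 and 5.95 in DB7. The Met1 values were almost equal, and the groups did not overlap. The difference was 1.03 (SE 0.10; limma, adjusted p = 0.000105), or about 2.04-fold. All DB7 values lay below the array median, and with no intensity filter limma's adjusted p was 0.000132. The difference was 0.98 without DB7 1 and DB7 4.

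Cldn4 went the other way. This claudin limits the passage of sodium in several epithelia and is a receptor for a clostridial toxin. It measured 7.10, 7.87 and 7.02 in Met1 and 8.93, 8.39, 8.96 and 8.93 in DB7. The nearest arrays of the groups, Met1 2 and DB7 2, were each the odd array of its own group, and the groups still did not overlap. The difference was -1.47 (SE 0.22; limma, adjusted p = 0.0013), so Cldn4 was 2.77-fold lower in Met1, with a 95% interval of 1.96-fold to 3.92-fold. Without DB7 1 and DB7 4 it was -1.34 (adjusted p = 0.00998).

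Ocln, which codes for occludin and has a role in junction assembly and regulation, was also lower in Met1. It measured 7.56, 7.69 and 7.72 in Met1 and 8.46, 8.71, 8.81 and 8.44 in DB7. Every DB7 array lay above every Met1 array, with a clear gap. The difference was -0.95 (SE 0.11; limma, adjusted p = 0.000318), or 1.93-fold, and it was -1.11 without DB7 1 and DB7 4.

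The other 3 genes differed little and were not called. Cldn3, a claudin of simple epithelia, had 4 tested probe sets with differences of 0.16, 0.22, 0.23 and 0.27. The brightest measured 11.39, 11.08 and 10.97 in Met1 and 11.13, 10.91, 10.88 and 11.04 in DB7, and the groups overlapped. Its difference of 0.16 had a 95% interval of -0.10 to 0.42 (limma, adjusted p = 0.338). All 4 probe sets lay on the side of Met1, and 2 of them had groups that did not overlap. Those 2, which end in _x_at and can bind related transcripts, were called under quantile normalization (adjusted p = 0.0459 and 0.0259). The brightest differed by 0.25 without DB7 1 and DB7 4 (adjusted p = 0.184). One of the 2 was also called under median centring (0.0479) and without Met1 3 (0.0443).

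Tjp1, the scaffold that links claudins to actin, measured 8.33, 8.45 and 8.38 in Met1 and 8.03, 8.23, 8.27 and 8.22 in DB7. The groups did not overlap, but the gap between them was small, and the difference of 0.20 had a 95% interval of 0.01 to 0.39 (limma, adjusted p = 0.105). F11r, an immunoglobulin-like adhesion molecule also present on platelets and endothelium, measured 9.89, 9.89 and 9.74 in Met1 and 9.60, 9.66, 9.64 and 9.60 in DB7. Here too the groups were apart by little. With DB7 1 and DB7 4 left out, Tjp1 differed by 0.14 and F11r by 0.19, and neither was called. The difference was 0.22 (95% interval 0.04 to 0.39; limma, adjusted p = 0.0641). It was called under quantile normalization (0.24, adjusted p = 0.0304) and under median centring (0.25, adjusted p = 0.0415), so its call rests on how the arrays are scaled. The second F11r probe set lay between 5.42 and 5.57 on all arrays and was not tested. Groups that did not overlap were found in 10 of the 12 tested probe sets, and in 39.4% of all tested probe sets.

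**Figure D2:**
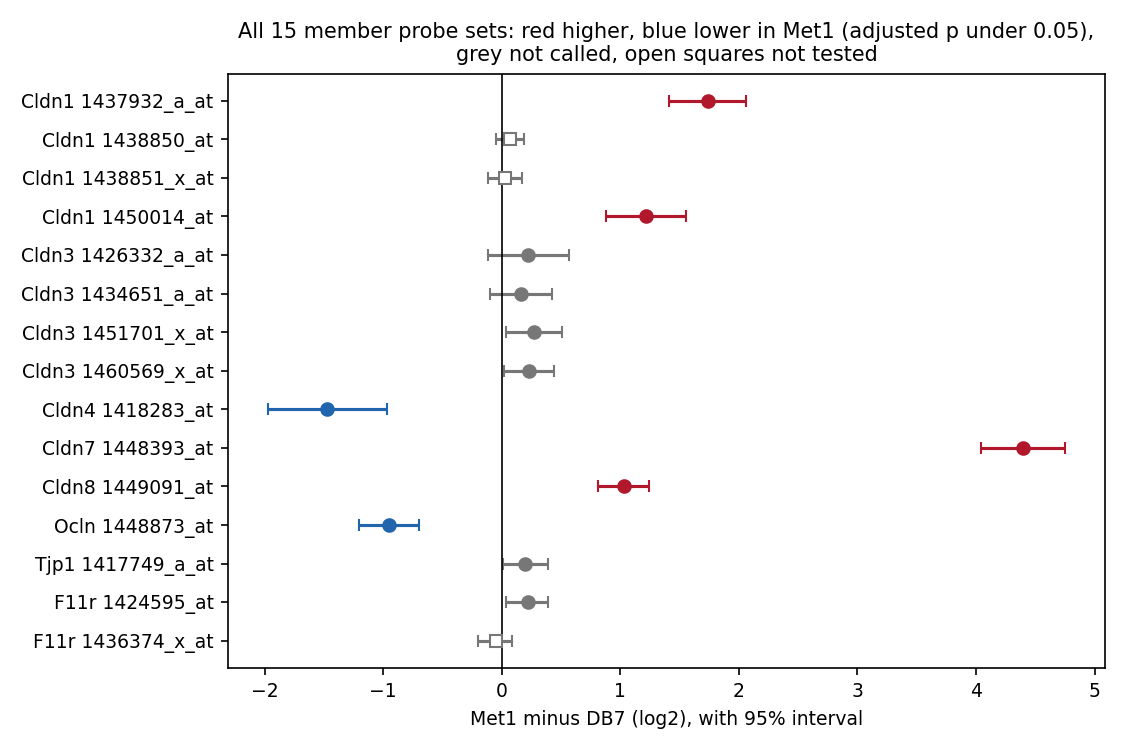
Difference between the lines (Met1 minus DB7, log2, horizontal axis) for each of the 15 probe sets, with its 95% interval. Cldn7 stands at 4.40, both bright Cldn1 probe sets and Cldn8 lie between 1.03 and 1.74, Cldn4 and Ocln lie at -1.47 and -0.95, and the rest lie between -0.05 and 0.27.

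Because claudins form strands together, the difference between 2 claudins was taken within each array and compared between the lines. This compares changes and not levels, since values of different probe sets are not on 1 scale. Changes can differ between probe sets of a gene as well, since the 2 tested Cldn1 probe sets gave 1.74 and 1.22. Only the brightest probe set of each claudin was used. Small shifts between genes therefore cannot be told apart from differences between probe sets. All 10 pairs of the 5 claudins were tested with an exact permutation test over the 35 ways of dividing the arrays, two-sided. Of these, 9 pairs reached the smallest p the design allows, 0.0286, which is 0.0317 after Benjamini-Hochberg adjustment over the 10 pairs. These tests rest on the same values as the single genes and add no independent evidence. Most pairs hold Cldn7 or Cldn8, which passed the intensity filter only through the Met1 arrays. The count of 9 pairs is therefore a description.

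The widest shift was that of Cldn4 against Cldn7. Cldn4 minus Cldn7 was -2.55, -2.38 and -2.90 in Met1 and 3.17, 3.10, 3.48 and 3.29 in DB7. The groups lay far apart, with a shift of -5.87; the sign within an array has no meaning, and the low Cldn7 signal in DB7 makes this size approximate. Cldn3 minus Cldn7 shifted by -4.24, with the same limit, and Cldn1 against Cldn4 by 3.21 (9.25-fold). Cldn3 and Cldn4 shifted against each other by 1.63 (3.09-fold).

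The brightest probe sets of the claudins that rose in Met1 did not rise by equal amounts. The 3 Met1 arrays averaged 2.75 ± 0.30 (SD) for Cldn7 minus Cldn8 and the 4 DB7 arrays -0.62 ± 0.25, a shift of 3.37. Cldn1 against Cldn7 shifted by -2.66. Cldn1 and Cldn8 were the pair with the smallest shift, 0.71 (1.64-fold), which did not pass although its groups did not overlap (exact permutation p = 0.0571). In that pair DB7 2 lay nearest to the Met1 arrays, at 0.92 against 1.20 to 1.45. The second tested Cldn1 probe set, which was not paired, differed between the lines by 1.22, closer to the 1.03 of Cldn8.

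**Figure D3:**
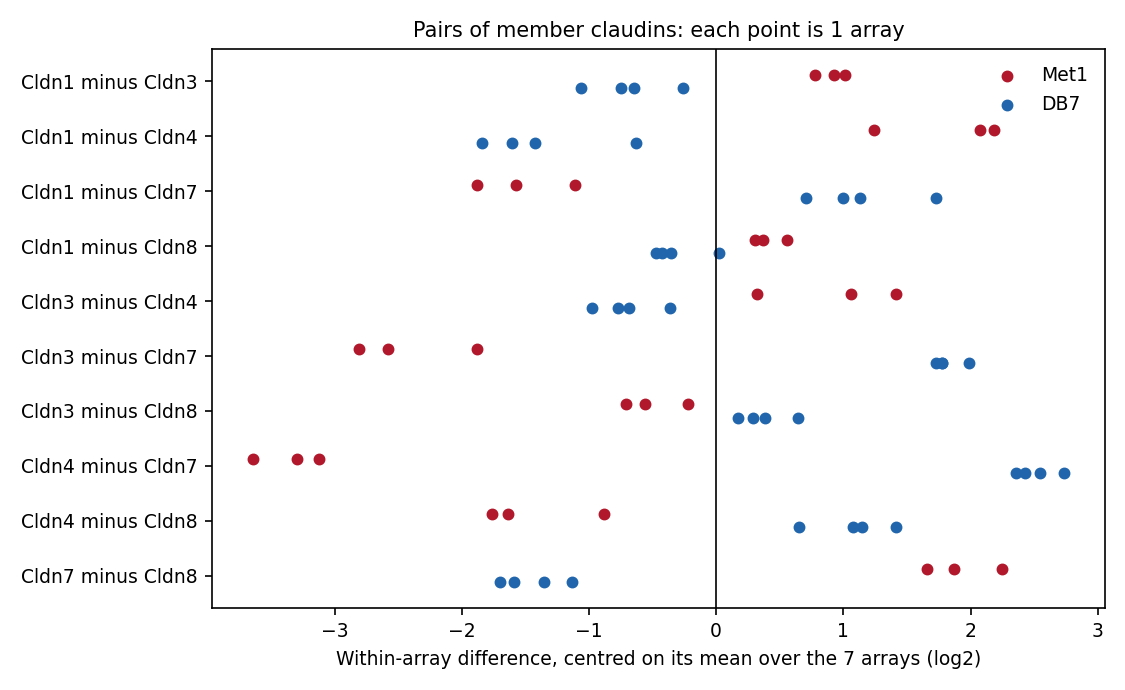
Difference between 2 claudins within each array (log2, centred on the mean of the 7 arrays, horizontal axis) for the 10 pairs, with Met1 arrays in red and DB7 arrays in blue. The colours separate in each pair, most widely for Cldn4 minus Cldn7 and least for Cldn1 minus Cldn8.

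The genes lie apart in the genome, except for Cldn3 and Cldn4, which are immediate neighbours on chromosome 5. The nearest gene with a tested probe set on each side was taken from RefSeq's table of assembly GRCm38.p6, in which all 8 genes were found. Beside Cldn4, Cldn3 differed by 0.16 and Mettl27, on its other side, by -0.02, so the fall of Cldn4 was not shared by either neighbour. Beside Cldn7 on chromosome 11, Slc2a4, an insulin-responsive glucose transporter, and Elp5, an Elongator subunit, differed by -0.08 and -0.03 and were not called. Near Cldn1 on chromosome 16 both Lpp and Il1rap rose, by 0.62 and 0.64 (limma, adjusted p = 0.00165 and 0.000961), less than Cldn1 itself. Near Cldn8, which is on chromosome 16 as well, Bach1 rose by 0.35 (limma, adjusted p = 0.00959) and Sod1 differed by -0.06. Near Ocln, Naip6 and Marveld2 differed by -0.12 and -0.16 and were not called. Near Tjp1, Tm2d3 fell by 0.38 (limma, adjusted p = 0.0251) and Mcee differed by -0.10. Near F11r, Pfdn2 fell by 0.27 (adjusted p = 0.0486) and Vangl2 differed by 0.07. Stx1a, beyond Cldn3, differed by -0.09. Up to 74 genes without a tested probe set lay between a gene and the one read beside it, the most for Sod1 and Cldn8.

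RefSeq's promoter table (GRCm38.p6) held 9 starts of 7 of the 8 genes, and Cldn8 had no entry. The 250 bases before the start are shown for Cldn7 and Cldn1, which rose, for Cldn4, which fell, and for its neighbour Cldn3, which was not called. Capitals mark matches on either strand to CAGGTG, an E-box bound by Snail and Zeb repressors, or GGGCGG, the GC box of Sp1. They also mark AACCGGTT, the grainyhead-like site, TTCNNNGAA, a STAT site, and TATAAA, the TATA box. No match overlaps another in these windows.
Cldn7 (first start), chr11:69964529-69964778, plus strand: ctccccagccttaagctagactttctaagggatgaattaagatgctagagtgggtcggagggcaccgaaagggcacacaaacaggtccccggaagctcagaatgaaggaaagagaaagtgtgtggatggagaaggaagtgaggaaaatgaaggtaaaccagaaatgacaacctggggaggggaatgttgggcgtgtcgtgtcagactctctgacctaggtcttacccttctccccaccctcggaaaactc
Cldn1, chr16:26371840-26372089, minus strand: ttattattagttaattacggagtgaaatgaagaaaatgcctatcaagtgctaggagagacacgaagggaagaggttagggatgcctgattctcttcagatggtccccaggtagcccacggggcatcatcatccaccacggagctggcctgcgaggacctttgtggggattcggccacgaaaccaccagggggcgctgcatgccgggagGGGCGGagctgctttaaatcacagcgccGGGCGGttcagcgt
Cldn4, chr5:134946935-134947184, minus strand: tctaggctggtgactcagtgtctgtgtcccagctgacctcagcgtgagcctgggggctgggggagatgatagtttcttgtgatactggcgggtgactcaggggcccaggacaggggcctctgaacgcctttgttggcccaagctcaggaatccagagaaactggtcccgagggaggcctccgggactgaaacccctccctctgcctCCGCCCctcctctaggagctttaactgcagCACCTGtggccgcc
Cldn3, chr5:134985964-134986213, plus strand: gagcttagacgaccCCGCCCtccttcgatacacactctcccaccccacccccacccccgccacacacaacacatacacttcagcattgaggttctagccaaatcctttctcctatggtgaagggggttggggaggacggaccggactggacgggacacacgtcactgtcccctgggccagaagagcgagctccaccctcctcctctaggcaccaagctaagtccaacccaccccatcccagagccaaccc
The first Cldn7 window held none of these 5 motifs, whereas Cldn1 held GGGCGG at 2 places, Cldn3 at 1 and Cldn4 at 1. Cldn4 was the only 1 of these 4 windows with CAGGTG, whose first base lies 14 bases before the start. A second Cldn7 start, further into the gene, had CAGGTG at 2 places, GGGCGG at 1 and TTCNNNGAA at 1 in its window. Among the other windows not shown, CAGGTG lay at 1 place for F11r, which was not called, and at 2 for the second Ocln start. The first Ocln start and Tjp1 had no CAGGTG. Among all 32851 promoter windows of this length, 17.2% held CAGGTG, 32.7% GGGCGG, 7.02% TTCNNNGAA, 12.4% TATAAA and 0.116% AACCGGTT. These matches describe letters only.

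Other tight junction genes were read from 3 lists, of other claudins, other membrane proteins and scaffold proteins, with 34 of 45 listed genes measured and 20 tested. In limma 0 of these rose and 5 fell in Met1 (1 higher and 5 lower at an unadjusted p under 0.05), and 15 were not called. Of all tested genes 30.9% were called. Without DB7 1 and DB7 4, 1 rose and 5 fell, but not the same genes: Marveld3 was called higher (0.45, limma, adjusted p = 0.0354), Cxadr lower (-0.35, 0.0394), and Cldn9 was no longer called. These counts take 1 probe set a gene.

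Cldn2, the claudin of leaky epithelia that forms pores for cations and water, fell the most. It measured 9.09, 9.88 and 9.79 in Met1 and 11.17, 11.08, 10.93 and 10.66 in DB7. The groups did not overlap, with Met1 1 the lowest array. The difference was -1.38 (SE 0.20; limma, adjusted p = 0.000991), or 2.6-fold, and its other probe set differed by -1.02 (adjusted p = 0.00807). Cldn9 fell by 0.30 (adjusted p = 0.0309). It lay above the array median on the 4 DB7 arrays alone and so could enter the test only by differing. Its place among the falls counted above is therefore a description. With no intensity filter limma's adjusted p for Cldn9 was 0.0374. Of 13 measured other claudins only Cldn2, Cldn9 and Cldn5 were tested, and the remaining 10 did not pass the intensity filter. Cldn5, the claudin of endothelium, measured 6.95, 7.04 and 7.24 in Met1 and 7.25, 6.78, 7.06 and 7.15 in DB7. The groups overlapped, and the difference was 0.02 (95% interval -0.26 to 0.29; adjusted p = 0.932).

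Scaffold proteins gave 3 falls and 0 rises among 10 tested genes, with a median difference of -0.08. All tested genes gave 17.9% lower and 13.0% higher, with a median of -0.04. Tjp3, which codes for the ZO-1 relative ZO-3, measured 6.88, 6.17 and 6.34 in Met1 and 7.23, 7.11, 7.23 and 7.40 in DB7. Met1 1 lay nearest to the DB7 arrays without reaching them, and the difference was -0.78 (SE 0.16; limma, adjusted p = 0.00612). Cgnl1, paracingulin, fell by 0.86 (SE 0.14; adjusted p = 0.00213), and its other tested probe set by 0.76. Arhgef2, a protein held at tight junctions by cingulin, fell by 0.65 (SE 0.10; adjusted p = 0.00156), and its other 2 probe sets differed by -0.69 and -0.58. For Amot, which binds polarity proteins, the probe sets disagreed: the brightest differed by -0.14, another by -0.18, and the last was higher in Met1 by 0.63 (adjusted p = 0.00346), so the count of 0 rises holds for the brightest probe set of each gene. The 7 tested other membrane proteins of the junction gave 0 calls in limma (1 at an unadjusted p under 0.05, Marveld3 with 0.34), with Lsr, the angulin of tricellular junctions, at -0.08 and Marveld2, tricellulin, at -0.16. Amot, Lsr and Marveld3 were chosen after their values were seen.

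Polarity proteins moved both ways, with 2 rises and 3 falls among 12 tested genes, against 13.0% higher and 17.9% lower over all tested genes. Counts this small are near those shares and are a description of the members. Llgl2, a basolateral polarity protein, was almost constant within each line, at 8.69, 8.65 and 8.76 in Met1 and 9.64, 9.64, 9.68 and 9.66 in DB7. The lines were separated by many times the spread within them. The difference was -0.96 (SE 0.07; limma, adjusted p = 3.86e-05). Dlg1, a basolateral scaffold, rose by 0.46 (adjusted p = 0.00988), although its other probe set differed by -0.03. Pals1, the Crumbs complex scaffold, rose by 0.53 (adjusted p = 0.0321), and its other probe sets differed by 0.48 and 0.60. Pard6g, of the Par complex, fell by 0.44 (adjusted p = 0.0241), with Met1 1 and DB7 2 both at 7.49. Crb3, an apical polarity protein, fell by 0.30 and was named after its value was seen.

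In the neighbouring adherens junctions, Vcl (vinculin) and Jup (plakoglobin) rose by 0.38 and 0.48 (limma, adjusted p = 0.0204 and 0.0232) and 0 of 7 tested genes fell (1 at an unadjusted p under 0.05). The shares over all tested genes were 13.0% higher and 17.9% lower. Cdh1, E-cadherin, measured 7.96, 8.13 and 7.73 in Met1 and 7.64, 8.03, 7.92 and 7.92 in DB7 and was chosen after its values were seen. Its groups overlapped, with a difference of 0.06 (95% interval -0.21 to 0.34). Desmosomes had 3 falls and 1 rise among 9 tested genes, against the same shares of 17.9% lower and 13.0% higher. Dsp, desmoplakin, was 2.36-fold lower in Met1 (adjusted p = 0.0105) with a wide Met1 spread, at 6.78, 7.30 and 8.15 against 8.39 to 8.92 in DB7. Perp fell by 0.55 and Dsc2, a desmosomal cadherin, by 0.34 (adjusted p = 0.0107 and 0.0189), whereas Pkp3, a plakophilin, rose by 0.43 (adjusted p = 0.00531).

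Among 7 tested transcription and splicing factors that act on junction genes, 2 rose and 2 fell. The shares over all tested genes were 13.0% higher and 17.9% lower. Grhl1, a grainyhead-like factor, measured 7.74, 8.06 and 8.13 in Met1, and the DB7 arrays reached at most 7.35. The groups did not overlap, and the difference was 0.77 (SE 0.12; limma, adjusted p = 0.00151). Esrp1, an epithelial splicing regulator, rose by 0.32 (adjusted p = 0.0266). Klf5 and Elf3, epithelial transcription factors, fell by 0.70 and 0.47 (adjusted p = 0.00659 and 0.00292). Snai1, Snai2, Zeb1, Zeb2 and Twist1, which repress epithelial junction genes, did not pass the intensity filter, and their values are not read as levels.

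Some of these smaller calls were lost when arrays were left out. Without DB7 1 and DB7 4 the calls of Cldn9 (limma, adjusted p = 0.0877), Pard6g (0.0983), Vcl (0.086) and Esrp1 (0.0959) were lost, and Pkp2, a plakophilin, was called lower (-0.34, 0.0267). The next losses are those with a single array left out. For Cldn9 this was so without Met1 1 (limma, adjusted p = 0.107), Met1 2 (0.0677), Met1 3 (0.0586), DB7 3 (0.0694) or DB7 4 (0.0659). For Pard6g it was so without Met1 2 (0.0983), Met1 3 (0.101), DB7 3 (0.0544) or DB7 4 (0.052). Pals1 was lost without Met1 1 (0.0505), Met1 2 (0.117), Met1 3 (0.104) or DB7 2 (0.0596), and Esrp1 without Met1 1 (0.0991), Met1 3 (0.0706) or DB7 4 (0.0578). Vcl was lost without Met1 3 (0.0939) or DB7 3 (0.0539), Jup without Met1 1 (0.0809) or DB7 3 (0.0564), and Dsc2 without Met1 1 (0.0615) or Met1 2 (0.0749). The 12 other called genes named under the rule from these lists stayed past the threshold in all 7 of these fits.

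**Figure D4:**
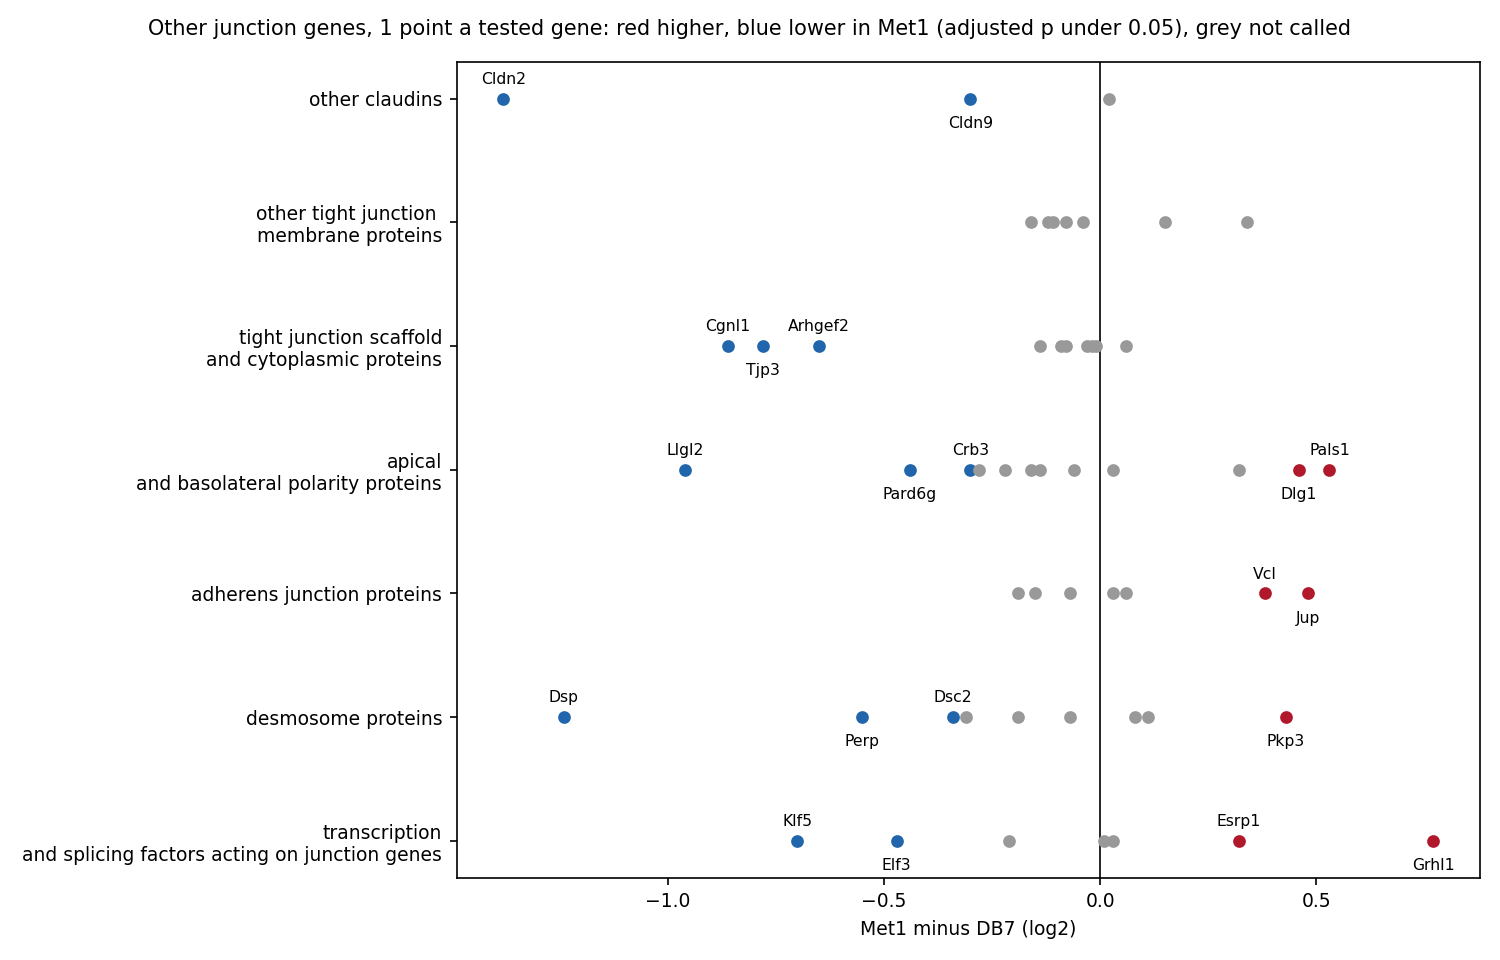
Difference between the lines (Met1 minus DB7, log2, horizontal axis) for every tested gene of the 7 lists of other junction genes, 1 point a gene, with called genes named. Called genes of the tight junction lists lie to the left, led by Cldn2 at -1.38, while the polarity, desmosome and transcription factor lists have called genes on both sides.

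Epithelial markers differed between the lines as well and are given beside these results. Of 11 tested markers 1 rose and 6 fell in Met1, beside 13.0% higher and 17.9% lower over all tested genes. Elf3, already counted among the transcription factors, is also 1 of these 6. Among the falls were Krt7 by 1.79, Krt18 by 1.01 and Epcam by 0.48, while Spint2 rose by 0.38. The mean over the 12 measured markers was 9.40 to 9.58 in Met1 and 9.81 to 9.93 in DB7, so the groups did not overlap, and no marker is at 0 on this scale. The falls of Cldn4, Ocln and Cldn2 ran the same way as this list, and the rises of Cldn7, Cldn1 and Cldn8 ran against it. The part of this list in the falls was not tested. The mean of 7 salivary gland markers was 6.51 to 6.91 in Met1 and 7.02 to 7.73 in DB7, led by Bpifa2 with a difference of -4.24. The other 3 tested salivary markers were not called, and its part in these results was not tested either. The group means of endothelial, fibroblast, macrophage, lymphocyte, adipocyte, myoepithelial, keratinocyte, skeletal muscle and platelet markers overlapped. For endothelial markers they were 6.72 to 6.92 in Met1 and 6.50 to 7.14 in DB7. Of 2 tested lymphocyte markers 1 was called lower (-0.42; limma, adjusted p = 0.0466). The 1 tested skeletal muscle marker was called higher (0.52; adjusted p = 0.0101). It lay above the array median on the 3 Met1 arrays alone and so could enter the test only by differing. Without DB7 1 and DB7 4, 5 of 7 tested fibroblast, 3 of 4 macrophage, 2 of 6 endothelial and 1 of 2 myoepithelial markers rose in Met1. The 1 tested skeletal muscle marker was higher there too. In that fit 1660 of all 11704 tested probe sets were higher in Met1 and 2052 lower. These 2 arrays were set apart by their high stromal genes, so rises of stromal markers follow from leaving them out. The part of these markers in the values without these arrays was not tested.

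For each of the 5 called genes, the 3 other genes with the most similar profile over the 7 arrays were found by the root mean square distance of values centred on each gene's mean (log2). With 2 lines this measure mostly follows the gap between them. Cldn7 was nearest to Slc28a3, a nucleoside transporter (distance 0.18), Ltf, the milk protein lactoferrin (0.27), and Sectm1a (0.28), with differences of 4.19, 4.47 and 4.77. Cldn1 was nearest to Map1lc3a, an autophagy protein (0.10), Atp6v1c2, a subunit of the proton pump (0.14), and the glycolytic enzyme Aldoc (0.15). Map1lc3a measured 10.21, 10.32 and 10.09 in Met1 and 8.59, 8.92, 8.34 and 8.25 in DB7, and like Cldn1 it was highest in DB7 2 among the DB7 arrays. Cldn8 was nearest to Car9, a carbonic anhydrase (0.07), the lipolysis inhibitor G0s2 (0.08) and Trim46 (0.10). Cldn4 was nearest to AW112010 (0.14), Ppfibp2 (0.20) and LOC664787 (0.23), all lower in Met1 by 1.37 to 1.63 in size. Ocln was nearest to Odc1, the first enzyme of polyamine synthesis, Hnrnpll, a splicing regulator, and Sgo1, which protects centromeric cohesion (each 0.09).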

How the data were processed

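Total RNA of transplanted tumours was extracted with Trizol, biotin-labelled and hybridised to 7 Affymetrix arrays, per the labels' protocols. Judged from their range, the deposited values are on a log2 scale, 1 per probe set; no source used here states the log base. Per the submitters' processing notes the authors used RMA and MAS5, without saying which gave these values. Columns were used as deposited; their medians lay between 6.53 and 6.61. Detection calls were not used here, and the precision is limited by the number of arrays.

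Of 22690 probe sets, 64 controls were left out. GEO's platform annotation gave 1 symbol to 20380 probe sets, several to 691 and none to 1555. Tested were probe sets that exceeded the median of the array on 3 or more arrays. The lines were compared by lmFit and eBayes of limma 3.58.1 (R 4.3.3) with an intensity trend, two-sided, with Benjamini-Hochberg adjustment over 11704 probe sets. The fit was tested on simulated data. The brightest tested probe set stood for a gene. Values of untested probe sets come from the same fit without the filter.

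Members, lists and tests were chosen with earlier results of these data known. Named are all 8 members, Cldn5, up to 4 called genes of each list with the smallest p, the 3 nearest profiles of called members, and neighbouring genes. Epithelial and salivary markers, Amot, Lsr, Marveld3, Cxadr, Pkp2, Crb3, Cdh1 and the untested repressors were named after values were seen. Alternatives covered scaling, filter, variance model, array weights, cross-hybridising probe sets, the probe set per gene, arrays left out and the replicate number as a block.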

Additional observations from a re-analysis of the deposited data

Results flagged for a closer look

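Within DB7, the profiles of the 15 member probe sets and of the other named genes (64 in all) were screened for an array whose gap to the nearest of the others took most of the group's range (Dixon's criterion at 95%). Chance flags about 1 in 20 groups, and 5 profiles met it; groups of 3 such as Met1 are not screened. Cldn4 in DB7 2 measured 8.39, against 8.93 to 8.96 in the other DB7 arrays, and remained above every Met1 array. Aldoc in DB7 2 measured 10.48, against 10.11 to 10.17. One of the 2 untested Cldn1 probe sets in DB7 2 measured 2.80, against 2.90 in the others. Mettl27 in DB7 3 measured 7.72, against 7.85 to 7.87, and Vangl2, the nearest tested gene after F11r, measured 7.31 in DB7 1, against 7.38.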

How the results depend on the processing

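The calls and directions of Cldn7, Cldn1, Cldn8, Cldn4 and Ocln held under all 18 alternatives. Their differences ranged from 4.24 to 4.56, 1.61 to 1.85, 0.95 to 1.07, -1.74 to -1.32 and -1.11 to -0.88. Choosing the probe set by the largest SD left the same probe sets for these genes and so could not change them. With arrays left out, the probe sets tested were still those chosen on all 7 arrays. Cldn7 and Cldn8 therefore stayed in the test when a Met1 array was dropped. Under quantile normalization 7 member probe sets were higher in Met1 in place of 4, because F11r and 2 Cldn3 probe sets were added. The number of listed junction genes higher in Met1 was 7, and ranged from 4 (without Met1 1 or without Met1 3) to 8 with a single array left out. The number of probe sets lower in Met1 over the whole table was 2060, and ranged from 1289 (without Met1 3; 1298 without Met1 2) to 2205 with a single array left out, and reached 2544 with array weights. The difference of Cldn5 turned to -0.07 without Met1 3 and -0.08 without DB7 2, and ranged from -0.08 to 0.08 with a single array left out. With the replicate number as a block, 1315 probe sets were higher and 1488 lower, 4 member probe sets higher and 2 lower, and 4 listed junction genes higher. That fit lost the calls of Cldn9 (limma, adjusted p = 0.0916), Pals1 (0.0515), Vcl (0.0942), Perp (0.0593), Dsc2 (0.0767) and Esrp1 (0.11). Same-numbered arrays did not deviate together (correlations -0.17, -0.05 and 0.02). These correlations show no pairing by number but cannot exclude a shared batch. The number of claudin pairs past the threshold was 9 under quantile normalization and median centring; with 6 arrays that test cannot pass the threshold, and the shifts kept their direction in all 7 cases. Signals below the array median, as for Cldn7 and Cldn8 in DB7, limit the precision of their folds.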
